A study of Bos taurus with 2 samples.

Results

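AP-1 and other immediate early genes, 10 in all, were examined in RNA from bovine whey: the AP-1 genes FOS, FOSB, JUN, JUNB and JUND, the zinc finger genes EGR1 and EGR2, and DUSP1, IER2 and BTG2. Members were the probes whose gene name in the array files is one of these symbols and that are not control spots, which gave 24 probes of 43652 in all and 10 genes of 15821 named ones. Whey, the liquid of milk without fat and casein, came from raw milk of Holstein cows, and RNA of 3 milk samples was mixed in equal amounts before labelling. The exosome group is what settled from whey in 90 min at 10000 g and 4 °C, as the labels give it, resuspended in PBS and spun again in 2 washes. The supernatant group is the liquid above the first pellet. No treatment, genotype or age separates them, and both come from the same kind of milk. The labels call the pellet exosome, meaning small vesicles released by cells, and the stated speed is lower than is usual for pelleting them. The title of the supernatant sample calls the spin ultracentrifugation, which does not match that speed. Whether a higher speed was used cannot be told from the labels. From each fraction 100 ng of pooled RNA was labelled with the green dye Cy3 and put on 1 array of 60-base probes. With 1 array per fraction there are no replicates and no test, so each difference below is between these 2 arrays.

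AP-1 is a dimer of basic leucine zipper proteins, formed by a Jun protein with a Fos, another Jun or a related partner, that binds DNA and switches on genes of growth and stress responses. Immediate early genes are those a cell transcribes first after a growth factor or stress, because their promoters are read by factors already present, such as SRF with its partners under the MAP kinases. Their messenger RNAs are usually made in a short burst and decay fast, often through AU-rich stretches near the 3′ end. In mammary tissue these genes are known to respond to growth factors, to milk stasis and to the handling of the cells.

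The results turn on which probe of a gene is read, so 3 sets of probe sequences are shown, 5′ to 3′ as the array files give them. The first set is the 4 probes that were not well above background on either array, each the probe of its gene nearest the 5′ end, shown whole and with no capitals.
EGR1 at base 331: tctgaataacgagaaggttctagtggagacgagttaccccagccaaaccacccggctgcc
EGR2 at base 497: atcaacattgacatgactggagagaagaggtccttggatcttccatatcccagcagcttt
FOSB at base 505: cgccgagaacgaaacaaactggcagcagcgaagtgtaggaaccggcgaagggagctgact
FOS at base 678: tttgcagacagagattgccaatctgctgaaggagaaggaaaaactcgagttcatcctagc
The second set is 30 bases from each of the 4 probes that hold a run of at least 5 G or 5 C, with every such run in capitals; all 4 were well above background in the supernatant.
EGR2 at base 1661: agcactattggtGGGGGGtccctcggccct
JUN at base 1184: actgtcGGGGGctgaggggcaacggagaaa
FOSB at base 2268: gctgaggctttgaCCCCCaccaCCCCCtaa
FOSB at base 3176: actgggccgctaCCCCCCtcctcgtggttc
The third set is 30 bases around AATAAA, in capitals, from the 3 probes that hold it. This is the sequence of the poly(A) signal, which lies near the end of many transcripts. Whether it acts as one in these probes was not tested, and 9.35% of all probes hold it.
FOSB at base 3176: tgcactgtcgccAATAAAaaactcttaaaa
IER2 at base 1705: agaatcgccagataggaaAATAAAgaccaa
JUN at base 1801: gcactctgagtttaccatttgtAATAAAgt
Positions are the first base of the probe in its transcript, as the array files give them. Whether a probe lies in coding or untranslated sequence was not analysed here.

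All values are the scanner software's processed signals, in arbitrary units. Detected, for a probe, means marked by the software as well above background, and for a gene that any of its probes was. The lowest such signal was 11.3 for the pellet and 9.04 for the supernatant. Among 3374 genes with a probe detected on both arrays, the pellet was brighter at the median gene by 3.50 (log2, 11.3-fold) before scaling. With the 75th percentile of each array set equal, all differences dropped by 5.56 and the median gene stood at -2.06. Differences are therefore given as unscaled folds and relative to the median gene, a value that no constant scaling moves. Below 0 on that scale can still mean a brighter exosome signal. Of the 50 probes printed on several spots, 9 were detected on both arrays, and repeated spots gave an SD of 0.18 (log2) in the difference. The SD between different probes of 1 gene was 1.71 (523 genes). No spread between cows, milks or preparations can be had from these arrays. Signals of different probes also depend on the probe, so brightness is not ranked across them.

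All 10 genes were detected on the exosome array, and 7 of them also on the supernatant array. FOS, JUND and IER2 were detected on the exosome array alone, and no member on the supernatant array alone. For named genes in general the background was 69.2% in the pellet and 22.8% in the supernatant, with 21.7% on both arrays and 47.4% in the pellet alone. Probe by probe, 8 of the 24 were detected on both arrays, 12 on the exosome array alone and 4 on neither. The shares over all probes were 58.5% in the pellet and 13.1% in the supernatant. Of the 7 genes in the supernatant, 6 were called there by a single probe, and FOSB by 2 of its 3. In bulk RNA, fewer vesicles or cells holding a transcript and less of it in each cannot be told apart.

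**Figure D1:**
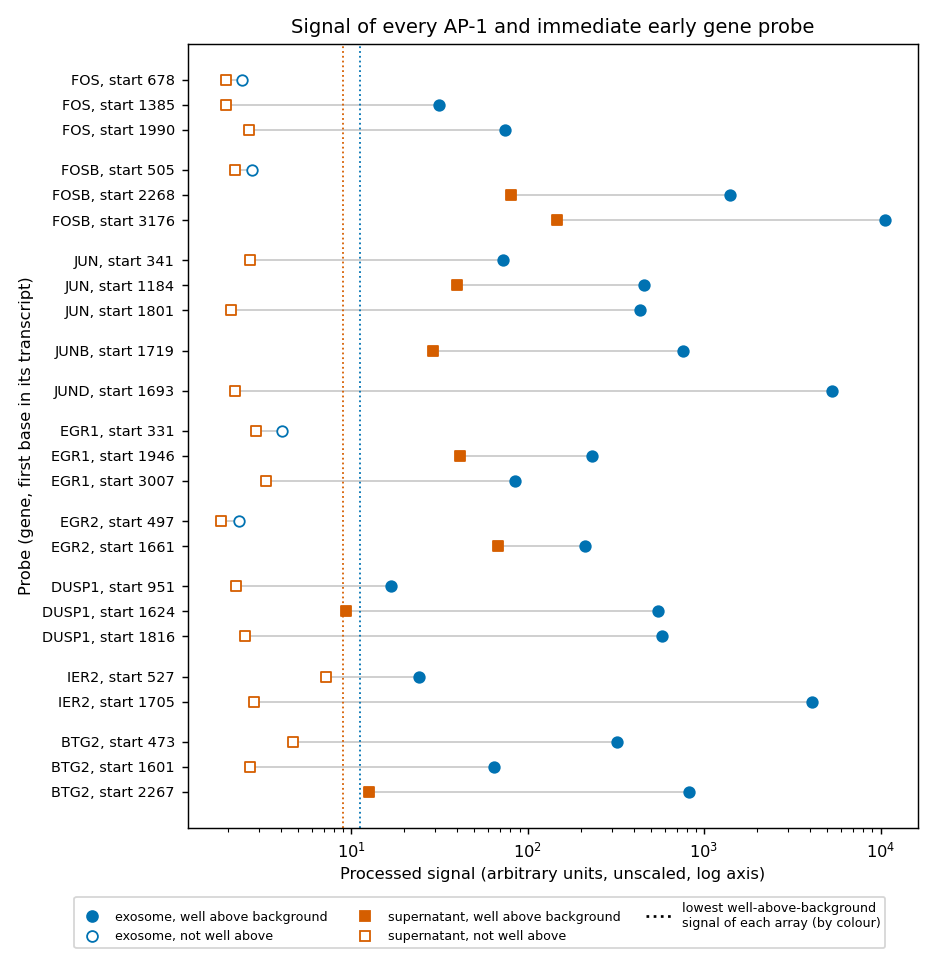
Each line is a probe of the 10 genes, labelled with its first base in the transcript; the horizontal axis is the processed signal on a log scale, circles are the exosome array, squares the supernatant array, and filled marks are well above background. On all 24 lines the circle lies to the right of the square, and only 8 squares are filled.

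FOSB was measured on both arrays, whereas FOS, the prototype of the family, was detected in the pellet alone. At base 1990 FOS read 74.6 in the pellet against 2.64 in the supernatant, and at base 1385 it read 31.3 against 1.95. Neither supernatant value was above background, even by the software's weaker flag. Both FOS probes were detected in the pellet, which left lower bounds of 8.25-fold and 3.47-fold before scaling. These bounds lie at -0.45 and -1.71 against the median gene, so the data do not place FOS on either side of it. Its probe at base 678, shown above, read 2.42 and 1.95 and was detected on neither array. The 3 FOS probes lie on chromosome 10, the last at chr10:88963194-88963253 on the plus strand, in genome build Btau_3.1, which the array files use.

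FOSB, a Fos protein that pairs with Jun, was read by 2 probes on both arrays. Its last probe, at base 3176, (chr18:52863095-52863154, plus strand) read 10629 in the pellet and 146 in the supernatant, a 72.8-fold difference. Its middle probe, at base 2268 (chr18:52862186-52862245) read 1408 and 80.3, a 17.5-fold difference. Both were far above background on both arrays and both were higher in the pellet, but they differed from each other by more than the spot SD, at 2.69 and 0.63 relative to the median gene. Their mean put FOSB 1.66 above the median gene, and the brightest probe alone put it 2.57 above. At base 505 (chr18:52859536-52859595) FOSB read 2.76 and 2.21 and was not detected. All FOSB values therefore come from the later part of the transcript, and from the 2 probes with runs of C shown above. No FOS probe holds a run of G or C. Without probes that hold such a run, FOSB had no detected probe on either array.

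The Jun genes, the side of AP-1 that Fos proteins need for binding DNA, differed in whether the supernatant held a signal at all. JUND, the family member that is usually expressed without stimulation, read 5337 in the pellet and 2.20 in the supernatant by its single probe (chr7:4840879-4840938, plus strand). The supernatant value was at background, so the difference has a bound only: at least 590-fold before scaling and at least 12.5-fold after 75th percentile scaling. That bound stands 5.71 above the median gene. JUNB, which can hold back JUN as well as act beside it, read 757 and 29.0 by its single probe (chr7:11005084-11005143, minus strand), a 26.1-fold difference and 1.21 above the median gene. JUNB thus had a measured supernatant signal where JUND had none above background.

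JUN, the prototype of its family, gave answers that depended on the probe. Its middle probe, at base 1184 (chr3:93620133-93620192, plus strand), which holds the run of G shown above, read 454 in the pellet and 39.7 in the supernatant. That is an 11.4-fold difference and 0.02 above the median gene. Its last probe, at base 1801 (chr3:93620750-93620809), which holds AATAAA, read 433 and 2.09, at least 47.9-fold higher in the pellet and at least 2.08 above the median gene. The lower bound from the later probe therefore exceeds the value measured by the earlier one. At base 341 (chr3:93619194-93619253) JUN read 72.7 and 2.68, with a bound of 8.05-fold. Of the 3 JUN probes, only the one with the run of G was detected in the supernatant.

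The EGR genes, zinc finger activators that bind GC-rich promoter sites, stood lowest among the measured members. EGR1 read 232 in the pellet and 41.2 in the supernatant at base 1946 (chr7:49145195-49145254, plus strand), a 5.64-fold difference. It stood at -1.00 against the median gene, a value past the 2-fold size call by much less than the spot SD; quantile normalization gave -0.90 and normexp background correction -0.73. With the weaker flag, which lets in the probe at base 3007, the direction turned to 0.19, and with no filter it was -0.35. The EGR1 probe at base 3007 of another transcript (chr7:49146005-49146064) read 85.1 and 3.30, at least 9.41-fold and so above what the first probe measured. EGR2 read 211 and 67.9 at base 1661, a 3.11-fold difference and the lowest member, at -1.86 against the median gene. That EGR2 probe holds a run of 6 G, and it is the only one of the 2 EGR2 probes that was detected. The array files give no genome position for the EGR2 probes. The earlier probes, EGR1 at base 331 with 4.03 and 2.88 and EGR2 at base 497 with 2.31 and 1.83, were detected on neither array.

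DUSP1, IER2 and BTG2 act after the first signal: DUSP1 is the phosphatase that switches MAP kinases off, IER2 a nuclear regulator, and BTG2 an antiproliferative protein that recruits the CCR4-NOT deadenylase to messenger RNAs. BTG2 read 822 in the pellet and 12.6 in the supernatant at base 2267 (chr16:80048-80107, plus strand), a 65.1-fold difference and 2.52 above the median gene. Its other probes, at base 473 of an Ensembl transcript and at base 1601, read 320 and 64.8 in the pellet against 4.66 and 2.69 in the supernatant. They gave bounds of 35.5-fold and 7.17-fold, both below the measured value. The 3 BTG2 probes therefore do not contradict each other.

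DUSP1 stood close to BTG2. At base 1624 (chr20:4576114-4576173, minus strand) it read 549 and 9.41, a 58.3-fold difference and 2.37 above the median gene. Its supernatant signal lay just above 9.04, the lowest detected signal there, so it was near the limit of detection. The last probe, at base 1816 (chr20:4575922-4575981), read 575 and 2.50, at least 63.6-fold. At base 951 DUSP1 read 16.9 and 2.21, a bound of 1.87-fold; its 60 bases lie across 488 bases of genome (chr20:4576787-4577274), more than its own length. Of the 3 probes all were detected in the pellet and 1 in the supernatant.

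IER2 read 4079 in the pellet and 2.83 in the supernatant at base 1705 (chr7:10697404-10697463, minus strand), the probe with AATAAA shown above. The bound is at least 451-fold before scaling, at least 9.54-fold after it, and 5.32 above the median gene. At base 527 (chr7:10698584-10698643) it read 24.2 and 7.21. The bound there is 2.68-fold. Both supernatant values of IER2 passed the software's weaker flag, a signal above background by its test, but not the stronger one. Averaged over both probes the IER2 bound was 34.7-fold.

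Across the 7 genes measured on both arrays, BTG2, DUSP1, FOSB and JUNB exceeded the median gene by 2-fold or more, EGR1 and EGR2 lay below it by as much, and JUN lay between. Of the 3374 genes measured, 37.3% and 36.8% met the same calls. A split of 4 above and 2 below among 7 is not far from that background. Neighbours in this order were 1.19 apart or less, under the SD of 1.71 between probes of a gene. The median of the 7 was 1.21 above the median gene. With a filter at 4 times the detection limit only 4 members were measured, FOSB, JUN, EGR1 and EGR2, and their median was -0.37. Only 1 of them, FOSB at 1.79, lay 2-fold or more above the median gene (background 33.9%). BTG2, DUSP1 and JUNB dropped out, with supernatant signals of 12.6, 9.41 and 29.0 against a lowest detected signal of 9.04. Under quantile normalization JUNB stood at 0.90. Their places among all measured genes ran from percentile 24.7 for EGR2 to percentile 78.0 for BTG2, so none lay at an edge of the distribution. Of the 3 genes in the pellet alone, JUND and IER2 had a bound 2-fold or more above the median gene (background 38.6%) and FOS did not. Before scaling, all 7 were at least 2-fold brighter in the pellet, as were 83.3% of measured genes. After 75th percentile scaling, which shifts all genes alike, the direction turned for 5 of them and for 67.5% of the 3374 genes: BTG2 (0.46) and DUSP1 (0.30) stayed above 0, and FOSB (-0.40), JUNB (-0.86), JUN (-2.05), EGR1 (-3.07) and EGR2 (-3.93) fell below it. None was then 2-fold higher in the pellet, against 18.1% of genes, and 3 were 2-fold higher in the supernatant, against 63.5%. Those background shares depend on the scaling: they were 37.4% and 36.7% with array medians, 83.3% and 1.33% with none, 52.7% and 19.6% with spike-in probes, 35.4% and 35.9% with normexp, and after quantile normalization 10.8% and 73.5%.

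**Figure D2:**
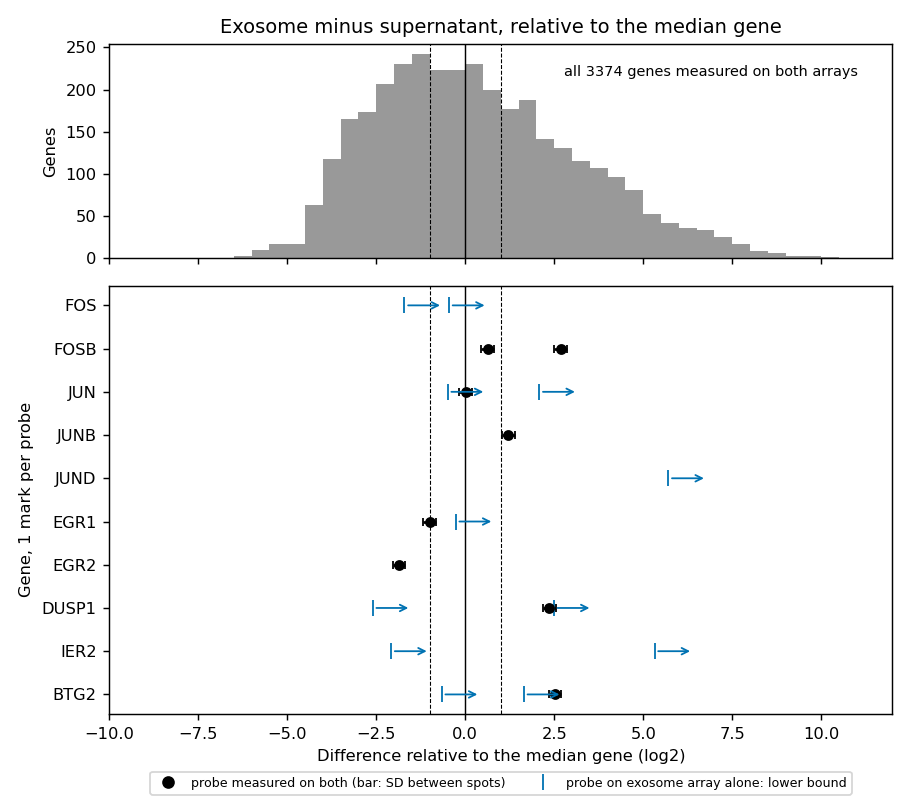
The upper panel counts all 3374 genes measured on both arrays by their difference relative to the median gene (log2, exosome minus supernatant). The lower panel gives the members on the same axis, a black point with the spot SD of 0.18 for each probe measured on both arrays and a blue tick with an arrow for each lower bound; dashed lines mark 2-fold. The measured probes run from -1.86 for EGR2 to 2.69 for FOSB, and the bounds of JUND (5.71) and IER2 (5.32) lie above all of them.

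The 4 undetected probes had a position in common. Of the 8 member probes that start within the first 1000 bases of their transcript, 4 were detected in the pellet and 0 in the supernatant. Of the 16 that start later, all 16 were detected in the pellet and 8 in the supernatant. This split was chosen after the values were seen. Over all probes on RefSeq NM transcripts, 62.6% of those starting up to base 1000 and 66.4% of later ones were detected in the pellet, and 13.2% and 13.8% in the supernatant. Among transcripts with probes on both sides of that base, 23.4% of 4386 were detected in the pellet by the later side alone and 5.11% by the earlier side alone. FOS, FOSB, EGR1 and EGR2 were detected on the later side alone, and JUN, DUSP1, IER2 and BTG2 were detected on both sides. The EGR2 probes lie on an Ensembl transcript, and the early and late BTG2 probes on different transcripts, so these 2 genes are not like the NM transcripts counted. No RNA integrity value was used here, and its part in this pattern was not tested.

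Probe sequence moved with the supernatant call. The 4 member probes with a run of 5 G or 5 C were all detected in the supernatant, against 4 of the other 20. Among all 43652 probes the same sequence feature went with detection there: 39.9% of the 2599 with such a run, against 11.4% of the rest. In the pellet the gap was smaller, at 71.6% against 57.6%. For GGGGG alone the shares in the supernatant were 37.7% with and 12.4% without, and for its reverse complement CCCCC 42.0% and 12.2%. GGGGG occurs in 2.88% of all probes and CCCCC in 3.22%. The difference itself was lower at G runs, with an unscaled median of 2.46 for probes with GGGGG and 3.45 for those without, but not at C runs, with 3.60 and 3.30. The runs were looked at after the values were seen, and what part they have in the supernatant signals of JUN, EGR2 and FOSB was not tested. Without all probes that hold a run, 4 of the 10 genes were detected in the supernatant (BTG2, DUSP1, EGR1 and JUNB), against 19.2% of named genes. FOSB and EGR2 then had no detected probe on either array.

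**Figure D3:**
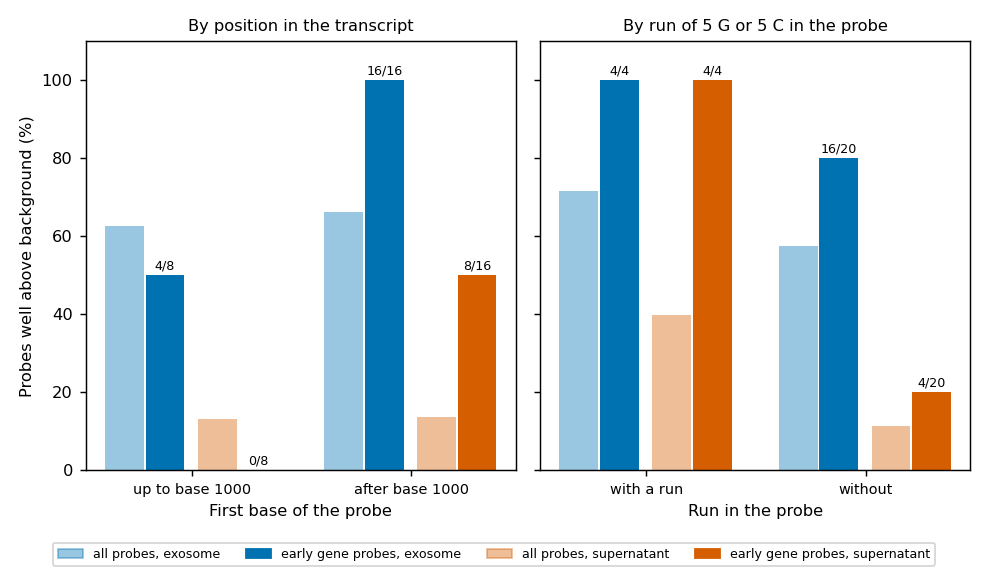
Bars give the percent of probes well above background in the exosome pellet (blue) and the supernatant (orange), pale for all probes and dark for the 24 probes of the early genes, whose counts are printed on the bars. On the left, probes are split at base 1000 of the transcript (pale bars: probes on NM transcripts), with supernatant counts of 0 of 8 and 8 of 16; on the right, by a run of 5 G or 5 C, with supernatant counts of 4 of 4 and 4 of 20.

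Different probes of a gene disagreed in size as well as in call. For BTG2, DUSP1, EGR1 and JUN, some probes were measured on both arrays and others in the pellet alone. In 3 of these 4 genes, DUSP1, EGR1 and JUN, the largest bound from the other probes exceeded the measured difference. The same was true of 55% of 1764 such genes on the array, so the members do not stand apart in this. The gap was smallest in DUSP1, 63.6-fold as a bound against 58.3-fold measured. It was largest in JUN, 47.9-fold against 11.4-fold. Calls in the pellet also differed between probes for 4 of the 8 genes with several probes, against 42% of 7936 genes.

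AU-rich pentamers, which mark many short-lived early transcripts, were searched as ATTTA in the probes. They were present in 4 of the 24 member probes: BTG2 at base 2267, FOS at base 1990, FOSB at base 2268 and JUNB at base 1719. The reverse complement TAAAT was in 3, DUSP1 at base 1816 and JUN at bases 1184 and 1801. Over all probes ATTTA occurs in 7.45% and TAAAT in 8.68%. The 4 pentamers are shown because they are the sequence feature this gene class is best known for, in 30 bases each and in capitals.
BTG2 at base 2267: caattctgactcagaggtgctATTTAccaa
FOS at base 1990: acttgaatgaaaaATTTAagcattgtttgc
FOSB at base 2268: tttcccggagaagATTTAaaggctgaggct
JUNB at base 1719: cggtttctaaaggATTTAttttaatttgtg
All 4 of these probes were detected in the pellet and 3 of them, all but FOS, in the supernatant. Over all probes with ATTTA the shares were 59.6% and 10.7%, and over those without it 58.4% and 13.3%. The FOSB probe at base 2268 also holds a run of C. The sequence AATAAA was in 3 member probes, those shown above, and in 9.35% of all probes. Its reverse complement TTTATT was in EGR1 at base 3007 and JUNB at base 1719 and in 3.46% of all probes. Of all probes with AATAAA 70.6% were detected in the pellet, against 57.2% of those without, and 22.7% in the supernatant, against 12.1%. All 3 member probes with it were detected in the pellet, and FOSB alone of them in the supernatant.

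A chosen set of the partners that Fos and Jun can dimerise with, and of their relatives, was read next. The set is not complete: it leaves out ATF4 and NFE2L1, for example, which were measured on both arrays at 7.64 and -0.53. Of 14 other AP-1 and related bZIP genes, 9 were detected in the pellet (64.3%, against 69.2% of named genes) and 5 also in the supernatant (35.7%, against 22.8%). FOSL1, FOSL2, BATF and MAFK were among those detected on neither array, so that among the Fos proteins FOS and FOSB alone had a signal. Of the 5 genes measured on both arrays, 1 lay 2-fold or more above the median gene and 3 as far below, with a median of -2.19. The shares over all measured genes were 37.3% and 36.8%. BATF2, an inhibitor of AP-1 induced by interferon, was highest of these 5 at 3.15 by 1 of its 2 probes. MAFG, a small Maf protein, stood at -0.42, ATF2, a Jun partner activated by stress kinases, at -2.32 by 1 of its 2 probes, and BATF3, a Jun partner of dendritic cells, at -3.48. BATF3 read 78.8 in the pellet and 77.5 in the supernatant. ATF3, a stress-induced partner of Jun, read 974 and 1.85 by its single probe, at least 108-fold higher in the pellet before scaling. The other ATF2 probe, in the pellet alone, had a bound of 0.33 relative to the median gene, above the value measured.

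The other immediate early genes spread to both sides of the median gene. Of 40, 29 were detected in the pellet (72.5%, against 69.2% of named genes) and 13 also in the supernatant (32.5%, against 22.8%). Of these 13, 4 lay 2-fold or more above the median gene, 3 as far below and 6 between, with a median of -0.43. Among all measured genes 37.3% lay as far above and 36.8% as far below. NFKBIA, the inhibitor of NF-kappaB, was highest at 2.20 by 1 of its 4 probes. GADD45B, a stress-induced growth arrest protein, followed at 1.61 by 1 of 2. Other probes in the pellet alone had bounds of 2.90 for NFKBIA and 5.03 for GADD45B, above the measured values, so their order depends on the probe. RHOB, a short-lived GTPase, stood at -2.96, and ZFP36L2, which binds AU-rich elements, at -3.73, each by 1 probe. For RHOB and ZFP36L2, other probes detected in the pellet alone pointed the opposite way, with bounds 1.58 above the median gene for RHOB and 2.67 above it for ZFP36L2. GADD45G was detected in the pellet alone, at least 131-fold higher before scaling and 2.78-fold after it. EGR3 and EGR4, the relatives of EGR1 and EGR2, were among the 11 detected on neither array, as were NR4A3, KLF2, KLF4, ARC, SOCS3, TNFAIP3, ID1, ID3 and SPRY4.

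The next list holds SRF and cofactors of it, CREB1, some of the MAP kinases with kinases above and below them, and the EGR corepressors NAB1 and NAB2. Of 23 on the array, 20 were detected in the pellet (87.0%, against 69.2% of named genes) and 12 also in the supernatant (52.2%, against 22.8%). Of those 12, 7 lay 2-fold or more above the median gene, 3 as far below and 2 between, with a median of 1.60. Of all measured genes 37.3% lay as far above and 36.8% as far below. MAP2K4, the kinase above JNK, was highest at 4.21 by 1 of its 3 probes, and the p38 kinase MAPK14 stood at 3.70 by 1 of 4. Their highest supernatant signals were 10.8 and 10.1, near the lowest detected signal of 9.04. MAPK8, the JNK1 kinase that phosphorylates JUN, was lowest at -4.02 by 1 of its 4 probes, and the SRF coactivator MRTFB stood at -2.43. Another MAPK8 probe, in the pellet alone, had a bound of 39.2-fold before scaling, 1.79 above the median gene. MAP2K1, the MEK1 kinase above ERK, was detected in the pellet alone, at least 93.2-fold higher before scaling and 1.97-fold after it. ELK1, ELK3 and BRAF were detected on neither array. Without probes that hold a run of G or C, 8 of 23 were detected in the supernatant (34.8%, against 19.2% of named genes). Of these, 4 lay 2-fold or more above the median gene, against 37.9% of all genes measured that way.

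Relatives of DUSP1 and BTG2 followed no single side. The 12 other DUSP phosphatases read are a chosen set, which leaves out DUSP23 and DUSP29, measured on both arrays at 1.94 and -2.93. Of the 12, 9 were detected in the pellet and 2 in the supernatant. These 2 were DUSP6, which acts on ERK, at 1.11 and DUSP7 at -3.79, each by 1 probe. The shares were 75% and 16.7%, against 69.2% and 22.8% of named genes. The other DUSP7 probe was in the pellet alone, at least 73.2-fold higher before scaling. DUSP12 was in the pellet alone, at least 104-fold higher before scaling and 2.19-fold after it, and DUSP5, DUSP8 and DUSP14 were detected on neither array. The next 13 genes were the BTG and TOB family and the CCR4-NOT complex, with the poly(A) binding protein PABPC1 counted among them. Of these, 12 were detected in the pellet (92.3%, against 69.2% of named genes) and 5 in the supernatant (38.5%, against 22.8%). PABPC1 was highest at 6.77 by 1 of its 4 probes and the deadenylase CNOT7 stood at 3.58 by 1 of 2. BTG1, the closest relative of BTG2 and also on the immediate early list, stood at 0.59 by 1 of its 3 probes. The deadenylase CNOT6L stood at -1.84, where its other probe had a bound of 0.32. Other probes of BTG1 and PABPC1, in the pellet alone, also had bounds above the measured values, 3.37 for BTG1 and 9.36 for PABPC1. TOB1 was in the pellet alone, at least 151-fold higher before scaling and 3.20-fold after it. Across all lists and markers, 19 of the genes picked for naming had a probe measured on both arrays and another in the pellet alone. In 14 of them the bound exceeded the measured value, against 55% of 1764 such genes on the array. Naming took in the 2 lowest measured genes of each list, and a low measured value is more easily exceeded, so the 2 shares are not alike.

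**Figure D4:**
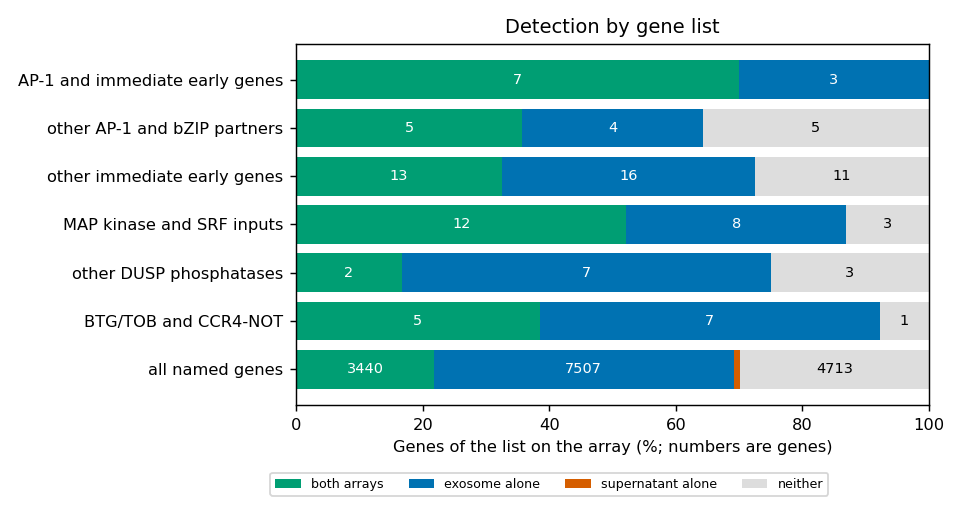
Each bar is a gene list, split by percent into genes detected on both arrays, on the exosome array alone, on the supernatant array alone and on neither, with the number of genes printed. The AP-1 and immediate early genes stand at 7 on both and 3 on the exosome array alone, and all named genes at 3440 and 7507.

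Markers of the cells that could give these transcripts were read on the same arrays. Milk epithelium markers were all detected in the pellet (9 of 9) and 7 in the supernatant, against 69.2% and 22.8% of named genes. CSN2 stood 7.18 above the median gene, CSN3 7.72, LALBA 5.12, PAEP 4.22 and KRT8 1.67. EPCAM was in the pellet alone, at least 42.5-fold higher. Of 12 leukocyte markers, 6 were detected on both arrays and 6 on neither, namely CD3E, CD8A, MS4A1, ITGAM, CSF3R and CXCR2. CD4 stood at -0.11, and lowest were CD14 at -2.42 and CD3D at -4.96, each by 1 of 3 probes. Another CD14 probe, in the pellet alone, had a bound of 84.0-fold before scaling. PTPRC, the pan-leukocyte marker, stood at -2.25 by 2 of its 4 probes. The signals of all 29 leukocyte probes summed to 13324 in the pellet and 3731 in the supernatant, of which 1 CD4 probe made up 76.0% and 1 CD3D probe 65.3%. The 30 epithelial probes summed to 4.19e+06 and 30286, the latter 81.0% from 1 PAEP probe, and the 6 tetraspanin probes to 16926 and 27.7. CD9 stood 2.49 above the median gene, and CD63 and CD81, the other vesicle tetraspanins, were detected in the pellet alone. Which cells the AP-1 and immediate early transcripts came from was not tested.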

How the data were processed

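RNA of 2 whey fractions was read on 1 one-colour bovine array each. Per the file headers, the authors' intensity values are processed signals made with Agilent Feature Extraction (version 10.7.3.1), detrended over the array and not scaled between arrays. The deposited log2 table by the authors equals the log2 of those signals for single-spot probes, with column medians of 4.81 and 1.32, so it is neither scaled nor centred. The deposited flags, coded 0 or 1, are another column type, per the file headers.

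Control spots and outlier spots (5 exosome, 2 supernatant) were left out, spots of a probe averaged, and each array's 75th percentile of log2 signal subtracted. A probe on several spots was detected where at least 50% of them were. Gene differences average the probes that both arrays detected, and the value of the median gene was then subtracted. Bounds set the exosome signal over the higher of the supernatant signal and 9.04, averaged over the gene's detected probes. A size call was 2-fold. Symbols came from the files, updated through the RefSeq table of ARS-UCD2.0 for 2347 of 26739 matched probes. Python 3.11.15 and limma 3.58.1 were used, and the calculation was tested on simulated data.

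The members and lists were chosen with earlier results of these data known, and the lists are not complete families. Named were all members and, per list, the 2 highest, the 2 lowest and the largest bound, plus a fixed set of markers. A few further genes are named after their values were seen: those detected on neither array. Some genes that this rule names are not reported here.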

Additional observations from a re-analysis of the deposited data

How the results depend on the processing

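With 2 arrays no error but that between spots can be had, and signals near background limit the supernatant calls. No paired analysis was possible because each fraction has 1 array. Members detected in the pellet fell from 10 to 6, and in the supernatant from 7 to 1, when detection was asked of every probe of the gene. In the pellet, 4 of the 8 members with several probes lost the call, against 42% of 7936 such genes. The 1 left in the supernatant was JUNB, which has a single probe, and genes with 1 probe pass this rule more easily. With the stricter filter 4 were detected in the supernatant. Without probes holding a run of G or C, an alternative chosen after seeing the data, 4 were detected there, against 19.2% of named genes. The supernatant share over all named genes was not computed for the every-probe rule or the stricter filter, so whether those falls are particular to the members was not tested.

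The median of the members relative to the median gene was 1.21. It was 0.90 with quantile normalization, 1.53 with the weaker flag, 2.11 with no filter, 1.75 without run probes and -0.37 with the stricter filter, where 4 members were left. Members 2-fold above the median gene numbered 4 of 7 measured, and 3 of 7 with quantile normalization. They were 1 of 4 with the stricter filter, 3 of 4 without run probes, 5 of 8 with the weaker flag and 6 of 10 with no filter. The share over all measured genes ran from 33.9% with the stricter filter to 40.9% with no filter. Members 2-fold below numbered 2 of 7, and 1 with quantile normalization, normexp, the weaker flag, the stricter filter, no filter and without run probes. The share of all measured genes that lay as far below ran from 29% with quantile normalization to 40.5% with no filter. EGR1 stood at 0.19 in place of -1.00 with the weaker flag.

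After array scaling 0 of 7 members were 2-fold higher in the pellet and 3 in the supernatant. These counts were 4 and 1 with array medians, 7 and 0 without scaling, 5 and 0 with spike-ins, and 4 and 1 with normexp. The supernatant count was 5 with quantile normalization, and 1 of 4 measured without run probes (background 62.4%). The pellet count was 1 of 10 measured with no filter (background 17.8%).

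Genes 2-fold above the median gene, by list: other AP-1 partners 1, then 2 with the weaker flag and 3 with no filter. Other immediate early genes 4, then 2 with normexp, 8 with the weaker flag, 1 with the stricter filter and 16 with no filter. MAP kinase and SRF inputs 7, then 11 with the weaker flag, 3 with the stricter filter, 16 with no filter and 4 without run probes. Other DUSP genes 1, then 0 with quantile normalization, normexp, the weaker flag, the stricter filter and the brightest probe, and 5 with no filter. BTG, TOB and CCR4-NOT genes 2, then 6 with the weaker flag, 1 with the stricter filter and 10 with no filter. The genes measured changed with these settings, so the counts by list are not out of a fixed number. In list order, the first counts are out of 5, 13, 12, 2 and 5 genes, and those with no filter out of 14, 40, 23, 12 and 13. The shares over all measured genes were 37.3% and 40.9%. They were 36% with normexp, 38.8% with the weaker flag, 33.9% with the stricter filter and 37.9% without run probes. A rise in a count is therefore not in itself a change in direction. Over all named genes, 3374 were measured, 9566 with the weaker flag, 1263 with the stricter filter, 15821 with no filter and 2778 without run probes. No filter lets in supernatant signals at background and the stricter one leaves fewer genes. The cause was not tested otherwise. Keeping outlier spots or using the deposited table moved no count.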
